A study of Homo sapiens with 8 samples.

Results

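TP63, TNFRSF10B, DHRS2, GBP2, GBP5, ADH1C and ZNF80 are human genes known for transcripts that start in LTRs of the ERV9 family, the LTR12 elements. These 7 genes of 20163 annotated protein-coding genes were taken by name, and for each of them the peaks of the KRAB zinc finger protein ZNF676 were collected in the gene body and within 50 kb of either end. ZNF676 was carried with a 3HA tag by lentiviral vectors and precipitated with an anti-HA antibody, with 3 ChIP-seq libraries in each of 2 human lines. HEK293T, an embryonic kidney line, held the construct in the pTRE backbone, was selected with puromycin and was given doxycycline to switch the gene on. H1, an embryonic stem cell line, held it in the pRRL-IRES-Blast backbone and was selected with blasticidin. Both groups therefore overexpressed a tagged protein, and the reads of the 1 input library of each line were left aside. The methods state that PCR duplicates were removed in H1 only, so that cell line, vector and duplicate removal cannot be told apart in any comparison of the lines.

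KRAB zinc finger proteins bind DNA through arrays of zinc fingers and, through the KRAB domain, recruit the co-repressor KAP1, which brings in the enzymes of heterochromatin. Many of them recognise one family of transposable elements. ERV9 LTRs are retroviral promoters that persist mostly as solitary copies, and several human genes use such a copy as an alternative promoter, often in germ cells.

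The reference for the elements was the LTR12C that the study cloned for its reporter assay, found by its primers at chr6:52651110-52652658 of GRCh37/hg19 on the plus strand and 1549 bases long. Positions are counted from 1 at its 5′ end. The centres of the LTR12C-like peak regions of both lines fell at a median position of 70 on it (935 of 1008 regions placed, 5th to 95th percentile 32 to 129), so the 60 bases from position 41 to 100 are the stretch at which the copies near the 7 genes were compared. The stretch is printed 5′ to 3′ for the cloned element, for an element near DHRS2 that had ZNF676 peaks in both lines and for 2 elements, near DHRS2 and ADH1C, that had none, as examples of a copy with peaks and of copies without. No printed copy carries the substitution at position 46 that is compared below. Capitals mark bases that differ from the cloned element or are inserted. The last 2 sequences start at position 48, where their alignment began.
Cloned LTR12C (chr6:52651150-52651209, plus strand): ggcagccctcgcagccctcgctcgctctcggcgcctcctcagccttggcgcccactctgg
DHRS2 element 1, peaks in both lines (chr14:24049672-24049740, plus strand): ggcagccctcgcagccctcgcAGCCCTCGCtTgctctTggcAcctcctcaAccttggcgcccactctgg
DHRS2 element 3, no peak (chr14:24104853-24104905, plus strand): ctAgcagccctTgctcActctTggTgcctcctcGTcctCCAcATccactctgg
ADH1C element 3, no peak (chr4:100280680-100280732, plus strand): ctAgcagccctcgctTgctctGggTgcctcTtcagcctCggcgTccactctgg

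Peaks were present in the windows of 2 of the 7 genes, DHRS2 and GBP5. In HEK293T both had a consensus region, that is, overlapping peaks merged and kept where 2 or more of the 3 libraries contributed, against 12% of all protein-coding genes. In H1 only DHRS2 had one, against 3.3% of all protein-coding genes. Both regions were LTR12C-like, with at least 100 bases aligned to the cloned element. A region of this kind lay in the window of 2.87% of protein-coding genes in HEK293T and of 2.63% in H1. TP63, TNFRSF10B, GBP2, ADH1C and ZNF80 had 0 peaks in all 6 libraries.

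**Figure D1:**
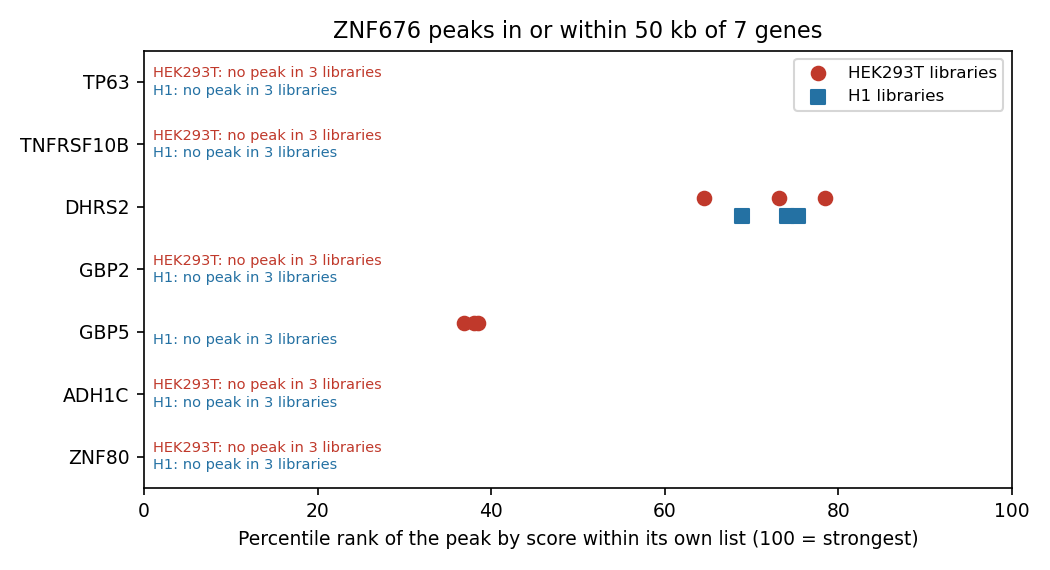
Percentile rank by score of each peak found in or within 50 kb of the 7 genes, 1 point for each library, with 100 as the strongest peak of the list. DHRS2 had a peak in each of the 6 libraries at ranks from 64.5 to 78.4, GBP5 had one in the 3 HEK293T libraries at 36.8 to 38.4, and the other 5 genes had none.

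The lists held 1711, 1432 and 1257 peaks in HEK293T replicates 1, 2 and 3 and 637, 576 and 495 in H1, 6108 in all. How many reads remained in each library is unknown, and weaker enrichment below the authors' threshold leaves no trace in a list. Each HEK293T library had 2 peaks in the 7 windows and each H1 library had 1, a difference of 1 peak that came from GBP5 alone (exact two-sided permutation test, p = 0.1, the smallest that 3 libraries against 3 allow). As a share of the list the order was the other way, 0.139% ± 0.0211 in HEK293T against 0.178% ± 0.0228 in H1 (SD, n = 3 each). The difference of -0.0390 percentage points did not pass (exact two-sided permutation test, p = 0.2). Since the number of peaks was the same in every library of a line, the SDs of the shares reflect list length alone. They measure no spread of binding at the 7 genes, and the test of the shares cannot speak to one.

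DHRS2, which encodes a short-chain dehydrogenase/reductase, had the only region of the 7 windows with peaks in both lines. It lay at chr14:24049447-24049945, 499 bp wide, and overlapped no annotated gene or exon. The gene itself is at chr14:24099324-24114848 on the plus strand, 49379 bp downstream, so the region was just inside the 50 kb limit. The closest annotated TSS was that of JPH4, a junctophilin gene that is not among the 7, at 1448 bp. Beyond the window, the nearest peak to DHRS2 was 90.9 kb from the gene body in H1, in 1 library, and 327.6 kb in HEK293T, in 3.

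The authors' scores at DHRS2 were 752, 310 and 555 in HEK293T replicates 1, 2 and 3, and 1069, 887 and 565 in H1. The scale of the score is not stated, so it was used only to rank peaks within a list. The peak stood at place 367 of 1711, 506 of 1432 and 334 of 1257 in HEK293T, and at place 165 of 637, 141 of 576 and 153 of 495 in H1. These places correspond to percentile ranks of 78.4, 64.5 and 73.2 in HEK293T and of 74.1, 75.3 and 68.9 in H1. The 2 groups overlapped, HEK293T replicate 2 being the lowest of the 6 and HEK293T replicate 1 the highest. Means were 72.0 ± 7.04 in HEK293T and 72.8 ± 3.43 in H1 (SD, n = 3 each), a difference of -0.74 points that was smaller than the spread between libraries (exact two-sided permutation test, p = 0.8, 1 region tested). Without HEK293T replicate 2 the difference was 3.03 points and without H1 replicate 2 it was 0.54, so its sign rested on single libraries.

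Of the 4 LTR12C-like elements in the DHRS2 window, only element 1, the farthest from the gene, carried the peaks. It spans chr14:24049652-24051468 in the same orientation as the gene, and its peak region began 205 bases upstream of it and was centred at position 61 of the cloned element. Element 2, less than 2 kb further on at chr14:24053111-24054656 and in the opposite orientation, had no peak in any library. Neither did the elements inside the gene: element 3 at chr14:24104853-24105869, which holds 3 annotated DHRS2 TSSs, and element 4 at chr14:24106917-24107603, which holds 1. The LTR sequences in which annotated DHRS2 transcripts start were thus without peaks, and the bound copy was 47856 bp from the nearest DHRS2 TSS.

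GBP5, an interferon-induced GTPase gene, had a region directly at its LTR promoter. The gene is at chr1:89721872-89738543 on the minus strand, and element 2, at chr1:89738137-89739573 in sense, holds 2 of its 5 annotated TSSs. The region was at chr1:89739402-89739684, 283 bp wide and 859 bp upstream of the gene's outermost TSS, over the 5′ end of this element and 111 bases beyond it. Its centre was at position 52 of the cloned element, and it overlapped no annotated gene or exon.

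At GBP5 the scores were 139, 147 and 153 in HEK293T replicates 1, 2 and 3, at places 1079 of 1711, 879 of 1432 and 778 of 1257. Percentile ranks were 36.8, 38.4 and 38.1, with a mean of 37.8 ± 0.833 (SD, n = 3). All 3 were in the lower part of their lists and below every DHRS2 rank. No H1 library had a peak there, and the nearest in H1 was 1619.3 kb away. The places of the GBP5 peak in HEK293T were all later than the length of the longest H1 list, 637 peaks, and the part of list length in its absence from H1 was not tested. Elements 1 and 3 of the GBP5 window, at chr1:89684337-89685034 and chr1:89767579-89769020, had no peak in any library.

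**Figure D2:**
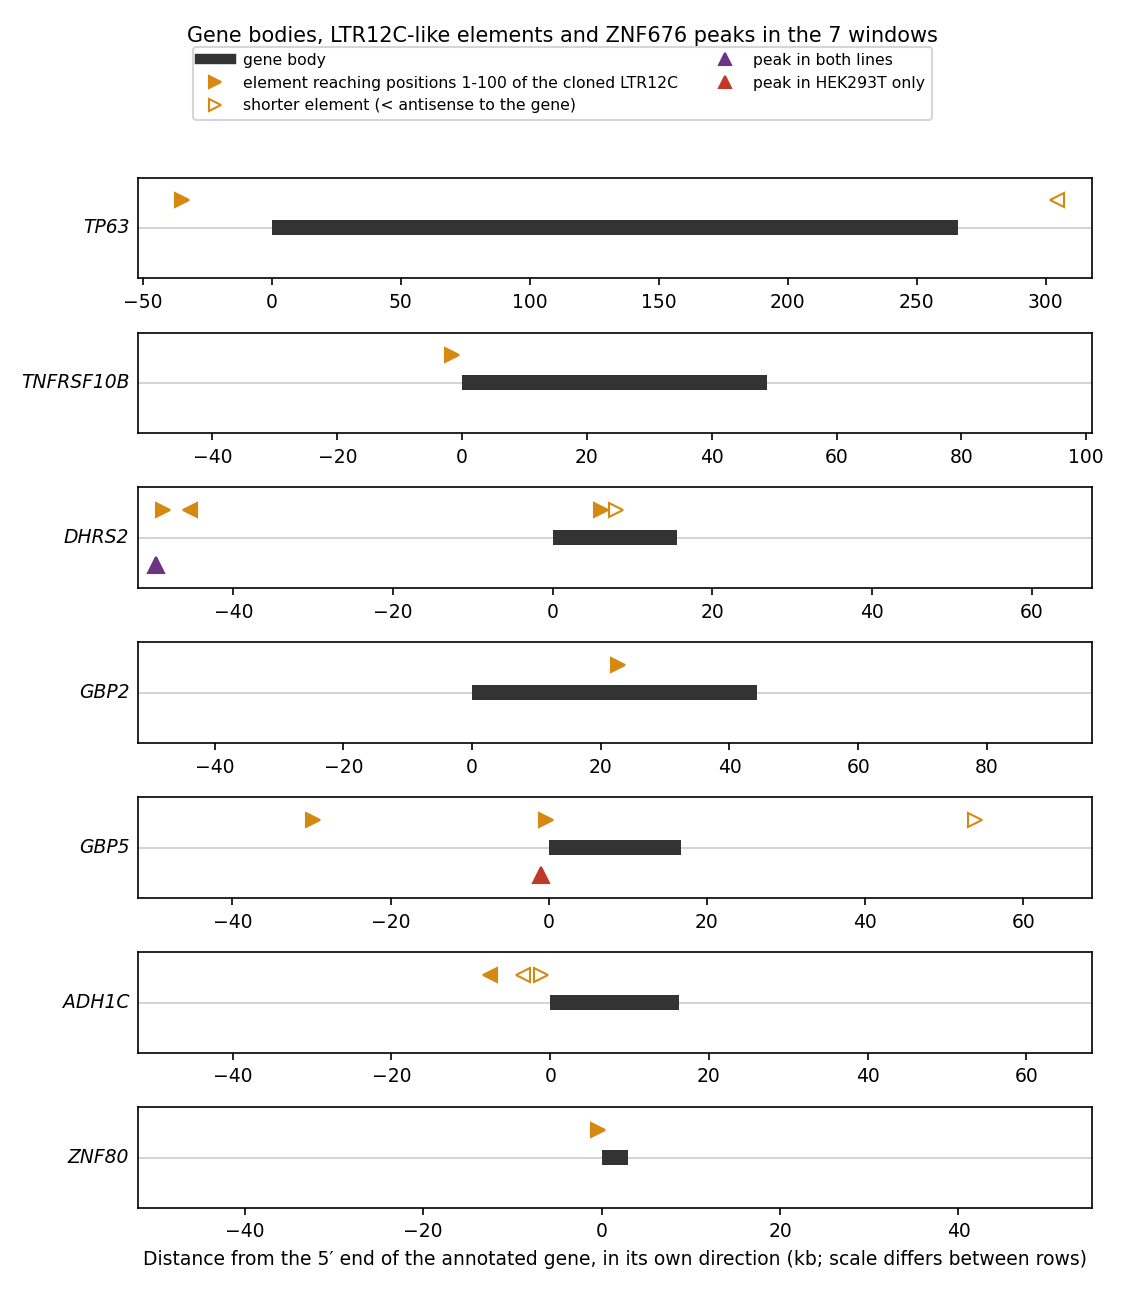
Windows of the 7 genes by distance in kb from the gene's 5′ end, each row with its own scale. Bars are gene bodies, right-pointing triangles are elements in the gene's orientation and left-pointing ones are antisense, filled where the element reaches the first 100 positions of the cloned LTR12C, and upright triangles are peak regions. The DHRS2 region lies at the left edge, 49379 bp from the gene, and the GBP5 region lies 859 bp from its start.

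GBP2, a second interferon-induced GTPase gene, is at chr1:89571815-89616139 on the minus strand. Its element 1 (chr1:89592701-89594298, sense) is 904 bp from the nearest of its 4 TSSs and reaches position 16 of the cloned element, yet it had no peak. The nearest peak to the gene was 123.3 kb away in HEK293T and 1469.2 kb in H1.

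ADH1C, which encodes an alcohol dehydrogenase subunit, is at chr4:100257654-100273903 on the minus strand. Its sense element 1 (chr4:100274695-100275405) is 792 bp from the nearest TSS but starts only at position 667, and antisense element 2 (chr4:100276860-100277774) starts at position 620. Antisense element 3 (chr4:100280680-100282425) starts at position 48. None of the 3 had a peak, and the nearest peaks were 247.3 kb away in HEK293T and 1413.2 kb in H1.

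TP63, a transcription factor gene whose LTR-driven isoform is known from the male germ line, is at chr3:189349178-189615065 on the plus strand. Element 1 (chr3:189313730-189314948, sense) is 34230 bp from the nearest annotated TSS and starts at position 20. Element 2 (chr3:189653069-189653804), antisense and downstream, starts at position 620. Neither had a peak, and the nearest was 1832 kb from the gene body, in 3 libraries of each line.

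ZNF80, a zinc finger gene at chr3:113953478-113956425 on the minus strand, has a single annotated TSS, and this TSS lies inside its sense element 1 (chr3:113955990-113957701), which starts at position 22. The element had no peak, and the nearest peaks were 2147.8 kb away in HEK293T and 4836.2 kb in H1.

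TNFRSF10B encodes a death receptor for the ligand TRAIL and is at chr8:22877646-22926544 on the minus strand. Its sense element 1 (chr8:22927452-22928865), 908 bp from the nearest of its 7 TSSs, starts at position 22. It had no peak, and the nearest peaks were 1887.2 kb away in HEK293T, in 1 library, and 2154.8 kb in H1.

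All 7 genes thus had at least 1 element in sense, and all had at least 1 element that reaches the first 100 positions. The windows held 15 elements, 11 in sense and 4 antisense, of which 2 had a region in HEK293T and 1 in H1. Over the whole genome 4820 such elements were found, and 11.2% had a region in HEK293T and 9.75% in H1. The 5 elements near the 7 genes that did not reach the first 100 positions had no region. Across the genome, elements whose alignment started beyond position 600 had a region in 1 of 2045 cases in HEK293T and in 2 in H1. Of the 10 near the 7 genes that did reach it, 2 had a region in HEK293T and 1 in H1, where the genome-wide shares were 19.9% and 17.3% of 2704 elements.

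Within the printed stretch, the elements with peaks were not simply those closest to the cloned one. DHRS2 element 1 had the cloned base at 56 of the 60 positions (C63T, C69T, G73A and G82A, with 9 inserted bases), and GBP5 element 2 had it at 54. The elements of ZNF80 and TNFRSF10B, without peaks, also had it at 54, that of TP63 at 53, and GBP2 element 1 and DHRS2 element 2 at 50. Over all elements with at least 50 positions aligned in the stretch, the median was 51 in HEK293T and 52 in H1 for those with a region, and 50 in both lines for those without.

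Among the 7 elements that could be aligned over the whole stretch, positions 46, 51, 90 and 97 separated those with peaks from those without. At position 46 both elements with peaks had the cloned base, whereas the 5 others, TP63 element 1, TNFRSF10B element 1, DHRS2 element 2, GBP2 element 1 and ZNF80 element 1, all had C46T. The same 5 all had G51A, G90T and C97T. DHRS2 element 1 had the cloned base at these positions, and GBP5 element 2 had it at all but position 90, where it had G90A. The other 8 elements could not be aligned at position 46. Of these, 5 lack this part of the LTR and 3, DHRS2 element 3, GBP5 element 3 and ADH1C element 3, begin to align at position 48, within a short tandem repeat, so that which of their bases corresponds to position 46 is uncertain. These 3 had the cloned base at position 51 and no peak. ADH1C element 3 also had it at positions 90 and 97, GBP5 element 3 at 90 and DHRS2 element 3 at 97. Positions 51, 90 and 97 therefore did not separate all elements with peaks from those without. Position 46 was picked after the sequences and peaks had been seen, and no test was made of it.

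**Figure D3:**
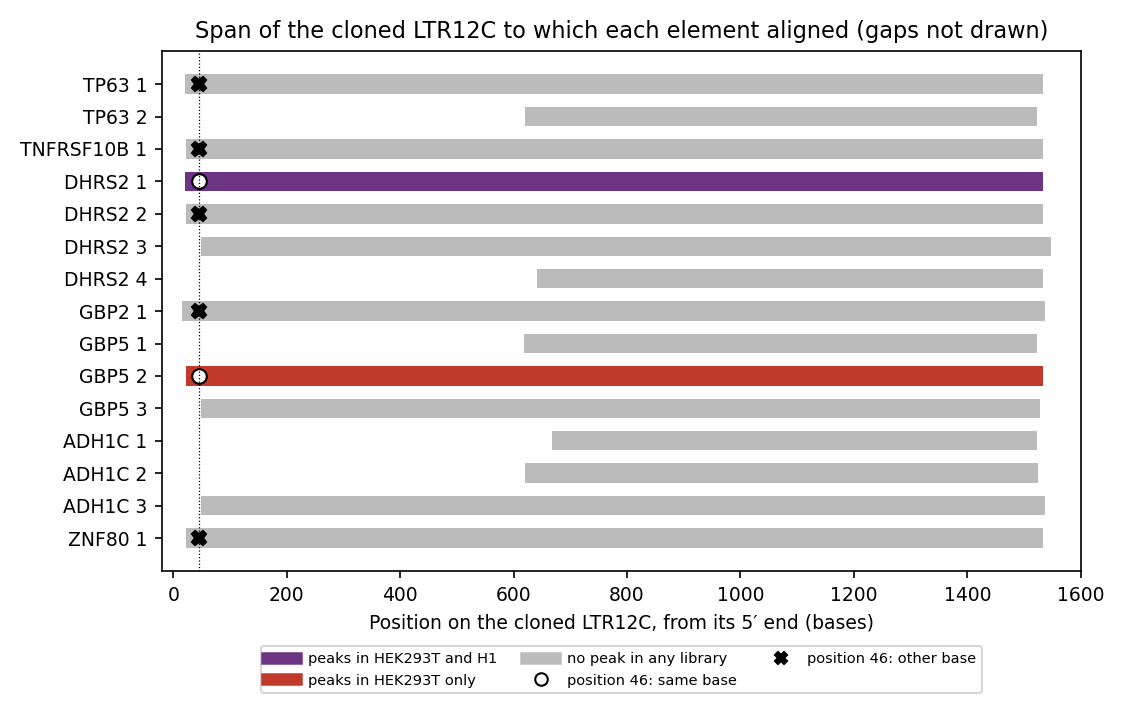
The 15 elements in the 7 windows, each drawn as a bar from the first to the last position of the cloned LTR12C to which it aligned, with gaps inside not drawn. Open circles mark the cloned base at position 46 and crosses another base. The 2 elements with peaks are those with circles, and the 5 with crosses had none.

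The same comparison was made over all elements that reach the first 100 positions. With the cloned base at position 46, 45.9% of 1029 elements had a region in HEK293T (95% exact binomial interval 42.8 to 49.0) and 41.3% in H1 (38.3 to 44.4). With C46T, 0.263% of 1142 elements had one in HEK293T, 3 in number, and 0% in H1, where a count of 0, taken as at most 3 counts, allows a share of up to 0.263% and the exact interval one of up to 0.322%. All aligned elements without the cloned base, whether by another base or by a deletion there, include those with C46T. Their shares were 6 of 1174 in HEK293T, or 0.511% (0.188 to 1.11), and 0 of 1174 in H1. Elements that could not be aligned at the position had a region in 11.8% of 501 cases in HEK293T (9.09 to 14.9) and 8.38% in H1 (6.11 to 11.2). The intervals cover counting error only, since copies related by descent are not independent. Without the elements in the windows of the 7 genes, the difference in this share between elements with the cloned base and elements with C46T was 45.5 percentage points in HEK293T and 41.3 in H1. The windows held only 2 of the elements with the cloned base and 5 of those with C46T, so leaving them out could hardly change it. Position 46 had been picked on the same peaks, so this is no independent check.

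**Figure D4:**
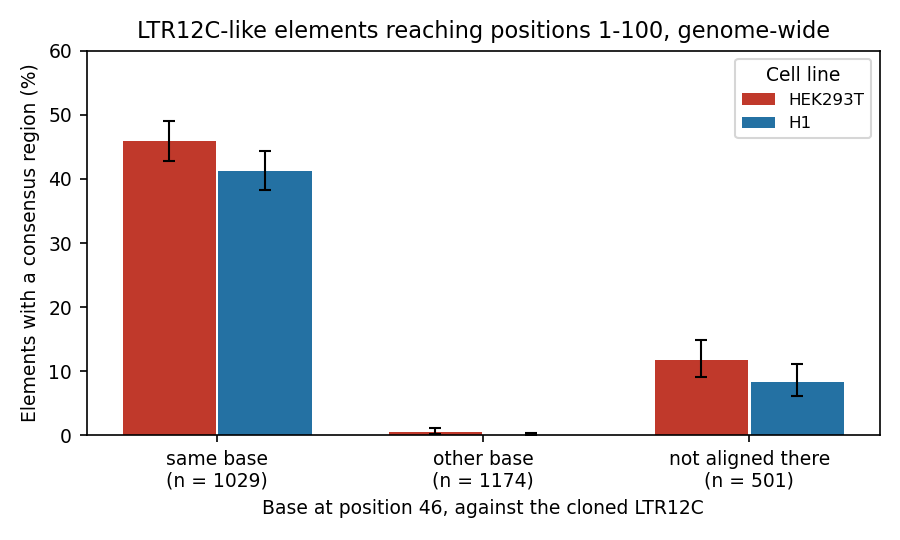
Share of LTR12C-like elements with a consensus region, in percent, by the base at position 46, over all 2704 elements that reach the first 100 positions. Bars are the 2 cell lines and error bars 95% exact binomial intervals. Shares were 45.9% and 41.3% with the cloned base and 0.511% and 0% with another base or a deletion there.

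Among the 60 positions of the stretch, position 46 had the largest gap between elements with and without a region in both lines, 66.4 percentage points in HEK293T and 66.0 in H1. Position 97 followed with 39.0 and 38.5, then position 90 with 31.4 and 31.8 and position 51 with 28.2 and 25.0. Among the 7 elements near these genes aligned over the whole stretch, the 4 positions varied together, except that GBP5 element 2 had G90A. Across the genome they did not always do so. There, elements with a region in HEK293T had the cloned base in 98.7% of 478 at position 46. Of 531 aligned at the other positions, 79.7% had it at 97, 64.2% at 90 and 64.4% at 51. In H1 the shares were 100% of 425, and 80.3%, 65.4% and 62.6% of 462. The sets differ because elements with a region that could not be aligned at position 46 are left out there. These were 59 in HEK293T and 42 in H1 among all that reach the first 100 positions. Which of the 4 bears on the peaks was not tested. At position 46 itself, 472 of the 478 aligned elements with a region had the cloned base in HEK293T and 425 of 425 in H1, against 557 of 1725 and 604 of 1778 elements without a region. Hence 557 of the 1029 elements with the cloned base had no region in HEK293T and 604 had none in H1, GBP5 element 2 being one of the latter. Positions 53 to 61 were among those that went the other way. At position 58, 70.4% of elements with a region and 89.1% of those without had the cloned base in HEK293T (69.0% and 88.8% in H1). The commonest change at positions 53 to 61 was a deletion, within the tandem repeat. Which repeat unit aligned at position 46 in elements with such a deletion is uncertain.

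Reads from near-identical copies map poorly and were removed by the authors below a mapping quality of 10, so the copies near the 7 genes were searched for such duplicates. None of the 10 elements that reach the stretch had another copy in the genome at 95% identity or more over at least 80% of the 301 bases around it. Those 301 bases are centred on the stretch and reach past the 5′ end of the LTR into its flank. A copy that shares only the LTR could therefore hardly cover 80% of them and would mostly be missed. Whether reads from near-identical LTRs mapped poorly at these elements was thus not tested. The search found all 10 at their own place and, for 7 of them, DHRS2 element 1 included, no other copy covering that much. For the other 3 the closest copies were at 85.6% for DHRS2 element 2, 80.8% for GBP5 element 2, which had peaks, and 72.4% for GBP5 element 3.

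The 3 genes with a TSS in a sense element, DHRS2, GBP5 and ZNF80, belong to 45 such protein-coding genes in the annotation. A region lay on the element holding the TSS in 6.67% of these genes in HEK293T, namely GBP5, PARP16 and TBL1XR1, and in 6.67% in H1, namely KMT2E, PARP16 and TBL1XR1. The last 3 genes are named because so few were found, after their values were seen. The 45 genes had 46 such elements. Of the 7 with the cloned base at position 46, 3 had a region in each line and 4 in either. The 17 with another base or a deletion there, the 5 not aligned there and the 17 that do not reach the first 100 positions had 0 in both. ZNF80 element 1, with C46T, was among the 17 with another base or a deletion.

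Paralogues of the 7 genes were examined by the same window rule, with a list of 17 from 4 families (TRAIL receptors, short-chain dehydrogenases, guanylate binding proteins and alcohol dehydrogenases). A region was found for 5 of them in HEK293T and for 3 in H1, set against 12% and 3.3% of all protein-coding genes, though neighbouring paralogues shared regions and are not independent. DHRS4, DHRS4L1 and DHRS4L2, relatives of DHRS2 in one cluster, shared a region at chr14:24442402-24442970, with a rank of 87.1 ± 4.21 in HEK293T and 57.6 ± 14.2 in H1 (SD, n = 3 each). They also shared one at chr14:24484940-24485450, with 92.0 ± 0.774 and 51.7 ± 9.05. Both regions were LTR12C-like, and the 2 elements under them had the cloned base at position 46. The remaining region, at chr4:100009811-100010370 and shared by ADH4 and ADH5, was present in HEK293T only, with a rank of 83.5 ± 2.21 (SD, n = 3), and was not LTR12C-like.

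No paralogue of GBP2, GBP5 or TNFRSF10B had a region, although GBP3, GBP4, GBP7, TNFRSF10A, TNFRSF10C and TNFRSF10D each had at least 1 element in the window. Of the 13 elements in these paralogue windows, 6 were also in a window of the 7 genes and had no region. Of the 7 others, the 2 with the cloned base at position 46 had a region in both lines. The 2 with another base or a deletion there and the 3 that do not reach the first 100 positions had none.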

How the data were processed

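ZNF676 ChIP-seq peak lists of 3 HEK293T and 3 H1 libraries were used. Per the study's methods and the submitters' processing notes, the authors aligned read pairs to the hg19 build by Bowtie2, removed reads with a mapping quality under 10 and blacklisted or high-input regions, removed duplicates in H1 with Picard, and called peaks with MACS2 per library. The deposited column of values is a whole-number score of unstated scale. The 2 inputs were not analysed here.

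Windows used GENCODE release 44 on GRCh37. Consensus regions merged peaks overlapping by at least 1 bp with a peak in at least 2 libraries. LTR12C-like elements were blastn alignments to the cloned LTR12C (E-value at most 1e-10), joined on one strand across gaps of at most 500 bases, with at least 100 aligned bases. A percentile rank was the peak's place by score within its list, ties averaged, in percent. Libraries were compared by exact two-sided permutation tests. The steps were tested on simulated data. Named were the 7 genes with every region in their windows, paralogues with a region, and the nearest gene to a region. Paralogues of 1 gene and some sequences are not reported here. Members and lists were chosen with earlier results of these data known. The labels number replicates, which the study's methods call biological.

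Tools were Python 3.11.15, numpy 2.4.6, pandas 2.3.3, scipy 1.17.1, pysam 0.24.0, bedtools 2.31.1, blastn 2.17.0 and matplotlib 3.10.9. Alternatives were other windows, consensus rules, list sizes, alignment minimums, left-out libraries and pairing.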

Additional observations from a re-analysis of the deposited data

How the results depend on the processing

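Of 99 values under alternatives, 82 were alike, in that differences with a test kept their sign and their side of the threshold, and counts and the shares at position 46 stayed within 1.5 times, whereas 12 moved, 1 was weaker and 4 reversed. A kept sign is not a kept size. The side of the threshold was fixed in advance, since no p could be below 0.1 and none could pass. With a 10 kb window DHRS2 dropped out, which left 1 of the 7 genes with a region in HEK293T and 0 in H1, for regions of any kind and for LTR12C-like ones, and the difference in the share of the list turned to 0.0693 percentage points (exact permutation p = 0.1). It was -0.0913 with a 100 kb window and -0.215 with the strongest 50% of each list, against -0.0390 (exact permutation p = 0.1 each, the smallest possible). With the strongest 50% of each list or with lists cut to the shortest length of 495 peaks, the HEK293T counts of genes and of elements with a region fell from 2 to 1. The difference in peaks per library was then 0 and -0.333 (exact permutation p = 1 each). With at least 200 aligned bases 1 gene had an LTR12C-like region in HEK293T, the GBP5 region having 172. Leaving out 1 library moved the DHRS2 rank difference between -3.94 and 3.03. At equal list sizes it has no value, since the HEK293T replicate 2 peak was at place 506. The difference between elements with the cloned base and with C46T in H1 was 24.6 percentage points with the strongest 50% of each list, against 41.3. All alternatives at position 46 were chosen after the data were seen. Replicate numbers mark no shared culture or day in the labels. With the replicate block (paired), the differences stayed at 1 peak (exact paired permutation p = 0.25, the smallest possible), -0.0390 percentage points (p = 0.25) and -0.74 rank points (p = 1). Read depth limits what a list can show, and it is unknown.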
